A study of Mus musculus with 13 samples.

Results

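The respiratory chain is the set of protein complexes in the inner mitochondrial membrane that turns the energy of nutrients into ATP. Complex I takes electrons from NADH, complex III passes them from ubiquinol to cytochrome c, complex IV hands them to oxygen, and complex V, the ATP synthase, uses the proton gradient they build. Most subunits are encoded in the nucleus and imported, a few core subunits are encoded by mitochondrial DNA, and a working complex needs both.

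Its genes were followed in mouse abdominal epidermis through pregnancy. Members were chosen by symbol: genes starting with mt-Nd, mt-Co, mt-Atp, mt-Cytb, Ndufa, Ndufb, Ndufc, Ndufs, Ndufv, Uqcr or Atp5, or with Cox and a digit from 4 to 8, without Ndufa4l2 and the Ndufaf assembly factors. The rule found 93 of the 21950 genes in the bulk table and 93 of the 28693 genes in the single-cell matrices. Of these, 13 were mitochondrially encoded and 80 nuclear, with 36 in complex I, 8 in complex III, 19 in complex IV (Ndufa4 included, a subunit first assigned to complex I) and 17 in complex V. Some Atp5 symbols, such as Atp5s and Atp5sl, belong to related factors and not to the core enzyme, and they were kept because the rule takes them.

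Bulk RNA came from 9 libraries of interfollicular basal keratinocytes, sorted as CD49f+ CD34- cells from abdominal skin of C57BL/6 mice, with 3 libraries a group. The groups were wild type at gestation day 16 (WT dpc16), wild type non-pregnant (WT NP) and K14creERT2;Tbx3flox/flox at gestation day 16 (Tbx3 cKO dpc16), in which the keratin 14 promoter drives a tamoxifen-inducible Cre. No source used here names the exons removed from Tbx3 or says whether wild type mice were given tamoxifen. For single cells, the whole epidermis was taken from Tbx3creERT2; R26H2B EGFP mice after tamoxifen, with 1 library each for NP, dpc16, and days 6 and 40 after birth (dpp6 and dpp40). Ages of the mice, and whether each library was a separate animal, were not given in the sources used here, so a p-value reflects how far libraries differed, and that difference may be technical.

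Tbx3 lay at 15.3 to 23.0 FPKM (fragments scaled by transcript length and sequencing depth) in WT dpc16, 6.38 to 8.96 in NP and 1.65 to 4.89 in cKO, so every cKO library was below every other. The basal markers Krt5, Krt14 and Itga6 were present in all 9 libraries, at no less than 5822, 4260 and 277 FPKM. Krt5 and Krt14 were lower in every cKO library (at most 10250 and 7408 FPKM) than in any other (at least 10830 and 7563), while Itga6 overlapped. Cd34 and the leukocyte gene Ptprc did not exceed 2.23 and 0.495 FPKM. In single cells, 6629 (NP), 12982 (dpc16), 9348 (dpp6) and 8716 (dpp40) cells were kept, with medians of 4436 to 5622 UMIs (unique molecular identifiers), and library pairs shared 75 to 154 cell barcodes.

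Nuclear members took a smaller share of the RNA in the 3 cKO libraries than in any other bulk library. They made up 2.10%, 2.27% and 2.45% of summed FPKM in the WT dpc16 libraries. In the NP libraries the share was 2.25%, 2.27% and 2.44%, and in the cKO libraries 1.63%, 1.96% and 2.03%. The groups' means were 2.27% ± 0.176, 2.32% ± 0.106 and 1.87% ± 0.215 (SD, n = 3 each). The cKO libraries did not overlap with the others, while WT dpc16 and NP covered each other. In bulk RNA, fewer cells of a type and less RNA per cell cannot be told apart.

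The same order held within most complexes. Complex I subunits took 0.479% to 0.592% of summed FPKM in cKO and 0.618% to 0.702% in the other 6 libraries. Complex III stood at 0.209% to 0.263% against 0.273% to 0.333%, and complex V at 0.488% to 0.597% against 0.648% to 0.750%. For complex IV the ranges overlapped, at 0.451% to 0.575% in cKO and 0.557% to 0.682% elsewhere. The mitochondrially encoded members showed no such order: they took 2.17%, 3.35% and 6.16% in WT dpc16, 3.55%, 4.58% and 1.43% in NP, and 1.73%, 2.13% and 6.03% in cKO. Libraries of each group lay both high and low, and all 3 groups overlapped. Of the summed FPKM of these members, mt-Atp8 alone made up 38.3% to 62.5%. Without mt-Atp8 the sums were 10775 to 18274 FPKM in WT dpc16, 7101 to 14149 in NP and 8458 to 20549 in cKO. These sums overlapped too.

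**Figure D1:**
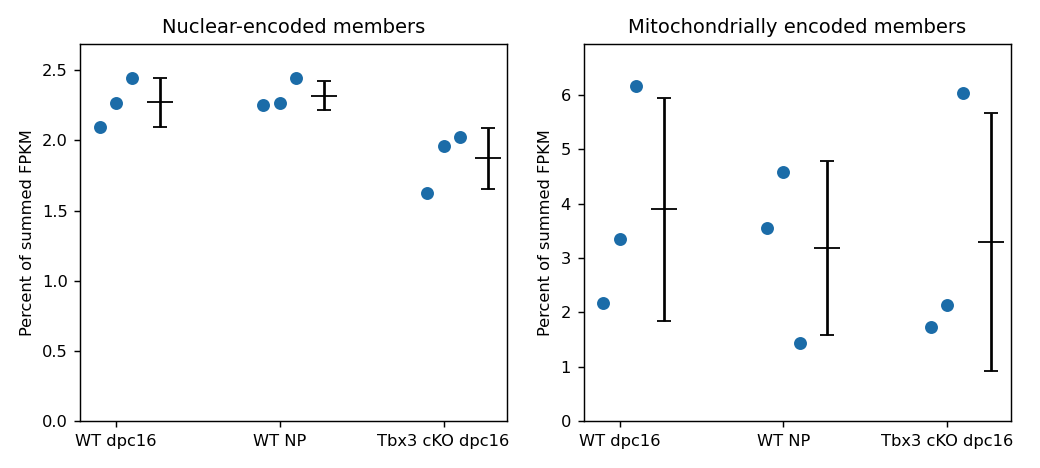
Percent of summed FPKM taken by nuclear and by mitochondrially encoded respiratory chain genes in each bulk library (points), with the group mean and SD (n = 3). The 3 cKO points for nuclear genes, 1.63% to 2.03%, lie below all others, and the groups overlap for mitochondrially encoded genes. Of the mitochondrially encoded FPKM, mt-Atp8 alone makes up 38.3% to 62.5%.

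Between WT dpc16 and NP, the comparison that addresses pregnancy in basal cells, no member passed the test. Of the 86 members with a mean of at least 1 FPKM, 0 were higher and 0 lower by limma with Benjamini-Hochberg adjustment, beside 0.104% of all 11497 tested genes called higher and 0.0261% lower. The smallest adjusted p among members was 0.403 (limma, Benjamini-Hochberg). At an unadjusted p under 0.05, 1 member was higher and 1 lower, where 3.71% and 5.33% of all genes were. Of the 74 nuclear members tested, 24 lay above 0 and 50 below, where 46.1% and 53.9% of all genes did, with a median log2 difference of -0.04 beside -0.03 over all tested genes. The 2 groups did not overlap for 4 members that were higher and 4 that were lower, beside 6.82% and 8.77% of all genes. Of the 12 mitochondrially encoded members, 9 lay above 0, with a median of 0.29 that came to -0.003 without NP library 3.

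The members with the smallest p in each complex show the size of these differences. Ndufc2, an accessory complex I subunit, stood at 108.5, 100.5 and 110.3 FPKM in WT dpc16 and 90.5, 83.4 and 77.4 in NP. All WT dpc16 libraries were above all NP libraries, with a log2 difference of 0.34 (unadjusted p 0.0205, adjusted p = 0.403, limma with Benjamini-Hochberg). Atp5j2 lay the other way, at -0.37 (unadjusted p 0.0344), and these were the 2 members under 0.05. Ndufa11 (-0.45) and Ndufs3 (0.28) came next in complex I, and Uqcr10 (-0.33), Uqcrq (-0.30) and Uqcrfs1 (0.16) in complex III. In complex IV Cox6b1 stood at -0.33, Cox7a2l at 0.24 and Ndufa4 at 0.26, and in complex V Atp5k at -0.46 and Atp5j at 0.29. Both signs occurred in each complex. Of mitochondrially encoded genes mt-Nd6 (0.74), mt-Nd5 (0.68) and mt-Nd4l (-0.57) had the smallest p.

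Tbx3 loss was measured by cKO against WT dpc16, both at gestation day 16. Again 0 members passed in either direction (limma, Benjamini-Hochberg), beside 1.23% of all genes called higher and 0.922% lower (2.15% in either direction). Most nuclear members nevertheless had lower values in cKO. Of 74 tested, 59 lay below 0 and 15 above, where 49.1% and 50.8% of all genes did, and the median log2 difference was -0.28 beside 0.01 over all genes. At an unadjusted p under 0.05, 22 were lower and 0 higher, where 8.24% and 9.19% of all genes were.

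The 4 nuclear complexes had similar medians. Complex I stood at -0.28 with 29 of 36 members below 0, complex III at -0.28 with 6 of 8, complex IV at -0.29 with 11 of 13 and complex V at -0.31 with 13 of 17. The cKO and WT dpc16 libraries did not overlap for 27 members that were lower and 2 that were higher, Ndufa6 and Cox7a2l, beside 12.9% and 13.3% of all genes. All 12 mitochondrially encoded members lay below 0, with a median of -0.29. Without cKO library 1, the library with the lowest nuclear share, the nuclear median was -0.16, and without cKO library 3 the mitochondrially encoded median was -0.70.

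Uqcr11, a small subunit of complex III, had the smallest p among members in cKO against WT dpc16. It stood at 377.5, 460.5 and 422.7 FPKM in WT dpc16, at 381.0, 414.4 and 556.4 in NP and at 193.8, 289.7 and 254.6 in cKO. Every cKO library was below every other. Its log2 difference from WT dpc16 was -0.78 (SE 0.19), with an adjusted p of 0.063 (limma, Benjamini-Hochberg) that missed the threshold of 0.05.

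Cox6a1, the broadly expressed form of a complex IV subunit, stood at 397.7, 422.7 and 422.5 FPKM in WT dpc16 and 247.5, 327.8 and 276.8 in cKO. The libraries did not overlap, and the log2 difference was -0.55 (adjusted p = 0.10, limma with Benjamini-Hochberg). Ndufs8, which carries iron-sulfur clusters in complex I, stood at 94.96, 81.9 and 94.6 FPKM in WT dpc16 and 56.1, 54.2 and 73.4 in cKO. These also did not overlap (log2 -0.57, adjusted p = 0.117, limma with Benjamini-Hochberg). Atp5b, the catalytic beta subunit of complex V, had a log2 difference of -0.41, and the accessory complex I subunits Ndufv3 and Ndufc1 had -0.63 and -0.73. Uqcrq stood at -0.56, the complex III core subunit Uqcrc1 at -0.28 and the complex IV subunit Cox5b at -0.35. In complex V, Atp5j2 stood at -0.54 and Atp5e at -0.47. Of mitochondrially encoded genes mt-Cytb (-0.34), mt-Nd5 (-0.32) and mt-Co2 (-0.31) had the smallest p.

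Other subunits lay on the other side of 0. Uqcrfs1, the Rieske iron-sulfur protein of complex III, had a log2 difference of 0.19, and Cox4i1, the main form of complex IV subunit 4, 0.18. Ndufa6, an accessory complex I subunit, stood at 222.3, 192.3 and 205.6 FPKM in WT dpc16 and 302.1, 237.3 and 239.4 in cKO. All cKO libraries were above all WT dpc16 libraries, and the log2 difference of 0.32 had an unadjusted p of 0.0536 and an adjusted p of 0.295 (limma, Benjamini-Hochberg).

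Against NP, 7 nuclear members fell in cKO and 0 rose (limma, Benjamini-Hochberg), beside 2.91% of all genes called lower and 2.76% higher. These 2 groups differ in both pregnancy and genotype, and the WT dpc16 libraries in the same fit split the difference into a step for each. The 7 were Atp5j2, Atp5e and Atp5k of complex V, Uqcr11 and Uqcrq of complex III, and Ndufa11 and Ndufb7 of complex I. No complex IV member and no mitochondrially encoded member passed. At an unadjusted p under 0.05, 29 members were lower and 2 higher, beside 13% and 10.8% of all genes. The nuclear median was -0.31 with 59 of 74 below 0 and 15 above, where 51.6% and 48.4% of all genes were. The mitochondrially encoded median was 0.04, with 7 of 12 above 0.

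Atp5j2 encodes subunit f in the membrane part of the ATP synthase (GRCm38 chr5:145183698-145192062, minus strand). It stood at 277.9, 347.6 and 366.6 FPKM in WT dpc16, at 393.3, 413.0 and 475.6 in NP and at 196.1, 234.8 and 251.7 in cKO. The 3 groups did not overlap, with NP highest and cKO lowest. Atp5j2 fell in cKO against NP by 0.91 on the log2 scale (SE 0.15, adjusted p = 0.0136, limma with Benjamini-Hochberg).

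Atp5e encodes the epsilon subunit of the enzyme's central stalk (chr2:174461072-174464105, minus strand). Its FPKM were 369.8, 431.0 and 402.5 in WT dpc16, 401.2, 461.7 and 594.1 in NP and 271.4, 299.6 and 295.8 in cKO. The cKO libraries were below all others, and WT dpc16 and NP overlapped. Atp5e fell in cKO against NP by 0.73 (SE 0.15, adjusted p = 0.0277, limma with Benjamini-Hochberg).

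Atp5k encodes subunit e, which sits where ATP synthase dimers meet (chr5:108433244-108434448, minus strand). Its FPKM were 263.4, 356.3 and 415.4 in WT dpc16, 432.3, 397.9 and 587.2 in NP and 169.7, 258.3 and 260.2 in cKO. The cKO libraries were below all others, by a small margin from WT dpc16 library 1, and WT dpc16 and NP overlapped. Atp5k fell in cKO against NP by 1.05 (SE 0.23, adjusted p = 0.0313, limma with Benjamini-Hochberg).

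In complex III, Uqcr11 (chr10:80402997-80406830, minus strand) fell in cKO against NP by 0.87 (SE 0.19, adjusted p = 0.0302, limma with Benjamini-Hochberg). Uqcrq, a small subunit of the same complex (chr11:53427922-53430831, minus strand), stood at 248.9, 247.4 and 252.4 FPKM in WT dpc16, 235.1, 272.7 and 450.1 in NP and 151.8, 191.7 and 164.8 in cKO. NP library 3 stood well above its group, and the cKO libraries were below all others. Uqcrq fell by 0.86 (SE 0.22, adjusted p = 0.0475, limma with Benjamini-Hochberg).

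In complex I, Ndufa11, an accessory subunit of the membrane arm (chr17:56717767-56722141, plus strand), stood at 20.4, 23.5 and 20.3 FPKM in WT dpc16, 26.96, 26.7 and 35.8 in NP and 11.6, 18.6 and 18.0 in cKO. The 3 groups did not overlap. Ndufa11 fell in cKO against NP by 0.87 (SE 0.21, adjusted p = 0.0417, limma with Benjamini-Hochberg). Ndufb7, an accessory subunit on the intermembrane side (chr8:83566671-83571626, plus strand), stood at 71.8, 80.1 and 76.6 FPKM in WT dpc16, 75.7, 83.3 and 117.1 in NP and 46.2, 60.2 and 56.9 in cKO. All cKO libraries were below all others. Ndufb7 fell by 0.73 (SE 0.18, adjusted p = 0.0479, limma with Benjamini-Hochberg).

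Through WT dpc16, each of these differences is the sum of a step from NP to WT dpc16 and one from WT dpc16 to cKO. The steps were -0.37 and -0.54 for Atp5j2, -0.26 and -0.47 for Atp5e, -0.46 and -0.59 for Atp5k, -0.09 and -0.78 for Uqcr11, and -0.30 and -0.56 for Uqcrq. For Ndufa11 they were -0.45 and -0.42, and for Ndufb7 -0.25 and -0.49. Both steps lay below 0 for all 7, the second was the larger for all but Ndufa11, and no single step passed (limma, Benjamini-Hochberg). The 7 were picked by the sum of both steps in the same fit, so the signs of their steps are not a separate result. Both steps also share the WT dpc16 libraries.

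These calls depended on single libraries, cKO library 1 among them. Leaving out cKO library 1 also lowered the share of all genes called lower, from 2.91% to 0.488%. Without it 0 of the 7 passed, and the adjusted p was 0.0530 for Atp5j2, 0.0977 for Atp5e, 0.102 for Uqcr11, 0.104 for Atp5k, 0.126 for Ndufa11, 0.153 for Uqcrq and 0.160 for Ndufb7 (limma, Benjamini-Hochberg). Over all 9 libraries left out in turn, the call was lost 1 time for Atp5j2, 4 times each for Atp5e and Uqcr11, 6 times for Atp5k and 8 times each for Ndufa11, Uqcrq and Ndufb7. All but Atp5j2 also lost it in 3 of 8 other settings, namely with every gene kept whatever its FPKM, with the compared groups fitted alone, and without a trend of variance on level.

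Just outside the threshold lay Ndufa13, an accessory complex I subunit, at 79.5, 85.5 and 74.7 FPKM in WT dpc16, 83.9, 89.4 and 115.8 in NP and 58.5, 64.8 and 65.2 in cKO. The cKO libraries were below all others, with a log2 difference from NP of -0.60 (adjusted p = 0.0507, limma with Benjamini-Hochberg). Uqcr10 of complex III stood at -0.60 (adjusted p = 0.127) and Cox6a1 at -0.55 (adjusted p = 0.0675, limma with Benjamini-Hochberg). Of mitochondrially encoded genes, mt-Nd4l (-0.67), mt-Nd6 (0.44) and mt-Nd5 (0.36) had the smallest p.

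**Figure D2:**
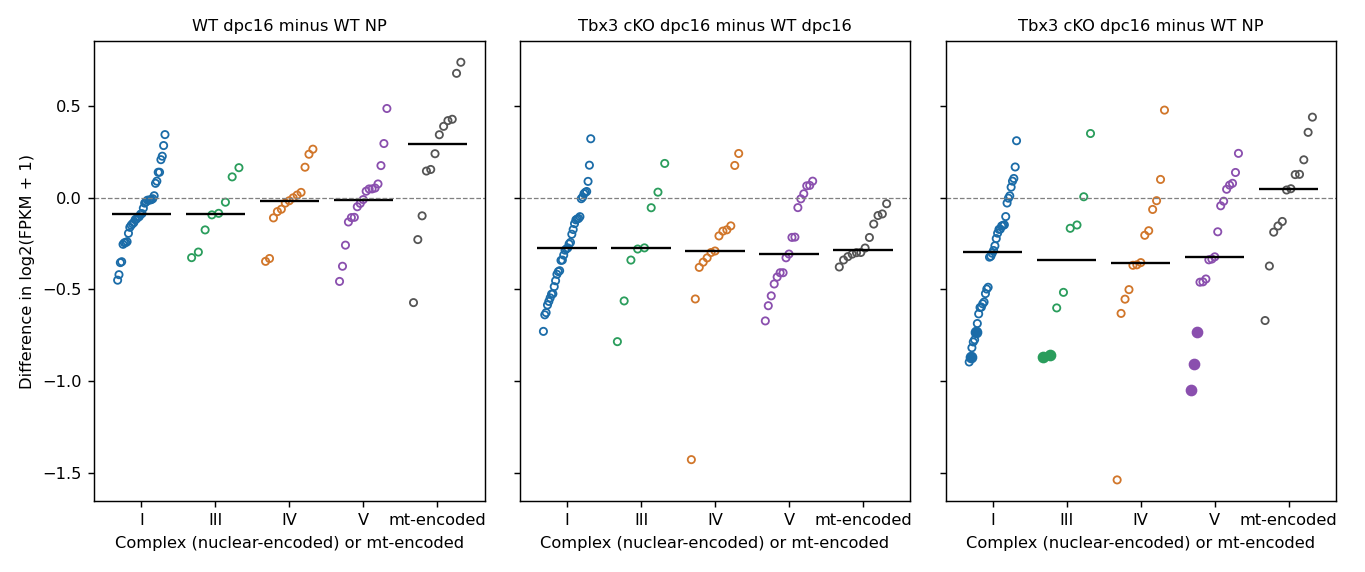
Difference in log2(FPKM + 1) of each tested member (points) by complex in the 3 bulk comparisons, with 0 as the dashed line. Nuclear members lie mostly below 0 in both comparisons with cKO, and the members past the limma threshold, 7 in cKO against NP, are marked.

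Several subunits have forms restricted to some tissues. The muscle, lung and testis forms were near 0 in basal cells: Cox7b2 and Cox8c were listed at 0 in all 9 libraries, Cox4i2, Cox6a2 and Cox8b in 8 of 9, and Cox7a1 did not exceed 2.87 FPKM. Cox6b2, the testis form of subunit 6b, stood at 7.24, 12.7 and 9.44 FPKM in WT dpc16, 6.27, 10.3 and 17.1 in NP and 4.74, 0.264 and 7.33 in cKO. The cKO libraries overlapped with both other groups, cKO library 2 was far below the other 8, and the log2 difference from WT dpc16 was -1.43 (adjusted p = 0.263, limma with Benjamini-Hochberg). Its broadly expressed counterpart Cox6b1 stood at 754.7, 813.2 and 1000.3 FPKM, 979.3, 1144.0 and 1093.1, and 542.0, 760.2 and 799.3 in the same order of groups. The NP libraries of Cox6b1 were above all cKO libraries, with an adjusted p of 0.0598 (limma, Benjamini-Hochberg).

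Cox7a2l, a relative of the subunit 7a forms that helps join complexes III and IV, lay in the opposite order. It stood at 360.5, 345.6 and 362.9 FPKM in WT dpc16, 336.2, 287.3 and 286.0 in NP and 458.8, 363.2 and 447.8 in cKO. The groups did not overlap, with cKO highest and NP lowest, and the log2 difference between cKO and NP of 0.48 had an adjusted p of 0.0634 (limma, Benjamini-Hochberg). The 3 genes for subunit c of the ATP synthase ring differed in cKO against WT dpc16 by -0.41 for Atp5g1, 0.07 for Atp5g2 and -0.43 for Atp5g3, none past the threshold. The broadly expressed forms Cox7a2 (-0.21), Cox7b (-0.15) and Cox8a (-0.18) and the subunit Ndufa4 (-0.33) did not pass either.

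Genes that act beside the chain were counted from fixed lists in the same fits. Of 78 mitochondrial ribosomal protein genes, 62 lay below 0 in cKO against WT dpc16 (median -0.21), where 49.1% of all genes did, and 0 passed, beside 0.922% called lower. Against NP 4 fell, beside 2.91% of all genes: Mrps21 (log2 -0.91, adjusted p = 0.0110), Mrpl12 (-0.70, 0.0305), Mrpl14 (-0.71, 0.0307) and Mrpl58 (-0.66, 0.0391; limma with Benjamini-Hochberg). Of 11 genes of complex II and the electron carriers, 1 fell in each comparison with cKO, Cycs, which encodes somatic cytochrome c. It stood at 36.7, 37.96 and 39.8 FPKM in WT dpc16, 39.95, 37.5 and 48.5 in NP and 22.8, 19.1 and 24.6 in cKO. The cKO libraries were below all others, and the log2 change of Cycs was -0.76 against WT dpc16 (adjusted p = 0.0420) and -0.89 against NP (adjusted p = 0.0170, limma with Benjamini-Hochberg).

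Of 40 assembly factors, 0 passed against WT dpc16 (median -0.16) and 1 fell against NP, Uqcc2, a complex III assembly factor (log2 -0.79, adjusted p = 0.0177, limma with Benjamini-Hochberg). Of 28 genes of mitochondrial biogenesis and mitochondrial DNA expression, 0 passed against WT dpc16 (median -0.14). Against NP 1 rose, Polg2, the accessory subunit of the mitochondrial DNA polymerase (0.82, adjusted p = 0.0370, limma with Benjamini-Hochberg). Of 22 genes of the TCA cycle and pyruvate dehydrogenase, 0 passed against WT dpc16 (median -0.12) and 1 rose against NP, Pdk4, a kinase that switches pyruvate dehydrogenase off. Pdk4 stood at 3.01, 6.49 and 1.35 FPKM in WT dpc16, 3.40, 0.763 and 1.06 in NP and 36.1, 11.6 and 7.38 in cKO. All cKO libraries were above all others, with a log2 change against NP of 2.65 (adjusted p = 0.0334, limma with Benjamini-Hochberg). Of 14 tested carriers, uncoupling and antioxidant genes, 0 passed against WT dpc16 (median -0.03) and 1 fell against NP, the chaperonin Hspd1 (-0.78, adjusted p = 0.0372, limma with Benjamini-Hochberg). In the lists with 1 call each, that count rests on 1 gene and is read beside shares of 2.91% lower and 2.76% higher over all genes, so it says nothing about the list. Between WT dpc16 and NP, 0 genes of these 6 lists passed.

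Markers of suprabasal keratinocytes, the layer above the basal cells, also stood lower in cKO. The list of 8 took 0.594% to 1.72% of summed FPKM in WT dpc16, 0.897% to 1.11% in NP and 0.376% to 0.552% in cKO. Of 7 tested, 6 lay below 0 in cKO against WT dpc16, where 49.1% of all genes did. There 1 fell, Krt1 (log2 -2.51, adjusted p = 0.00943, limma with Benjamini-Hochberg), beside 0.922% of all genes called lower. Against NP 2 fell (limma, Benjamini-Hochberg), beside 2.91% of all genes. Flg, which marks the granular layer, did not exceed 1.80 FPKM. The basal markers Krt5 and Krt14 also lay lower in every cKO library than in any other. The part of suprabasal cells, or of the lower basal keratins, in the nuclear member result was not tested. Skeletal muscle markers took at most 0.00564% of summed FPKM, and adipocyte and fibroblast markers had 0 tested genes. Among 4 tested smooth muscle and pericyte markers, Mcam rose in cKO against WT dpc16 (log2 2.54, adjusted p = 0.00452, limma with Benjamini-Hochberg), beside 1.23% of all genes. Acta2 fell in WT dpc16 against NP (-1.81, adjusted p = 0.0347, limma with Benjamini-Hochberg), beside 0.0261%. In cKO against NP 1 marker rose and 1 fell (limma, Benjamini-Hochberg), beside 2.76% and 2.91% of all genes.

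The called members are short transcripts. Median annotated lengths in GENCODE were 322 bases for Atp5k, 421 for Atp5e, 445 for Uqcr11, 504 for Uqcrq, 545 for Ndufa11, 623 for Ndufb7 and 748 for Atp5j2. In cKO against NP, the 33 members under 700 bases had a median log2 difference of -0.49, with 28 below 0 and 6 called. The 404 tested genes of that length stood at -0.26, and 6.93% of them were called lower. Members from 700 to under 1500 bases stood at -0.30 beside -0.12 over all genes of that length, and those from 1500 to under 3000 bases at -0.17 beside -0.03. Members stood below all genes of like length in each class, and both moved with length.

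In cKO against WT dpc16 the members' medians were -0.34, -0.23 and -0.05 in the same order of classes, beside -0.11, -0.07 and 0.00 over all genes. Over the 74 nuclear members, Spearman's rho between length and difference was 0.375 in cKO against NP, 0.313 in cKO against WT dpc16 and 0.261 in WT dpc16 against NP, all as descriptions, since members share the same 9 libraries. Over all genes with a length it was 0.149, 0.115 and 0.0879. The part of transcript length in the differences was not tested.

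**Figure D3:**
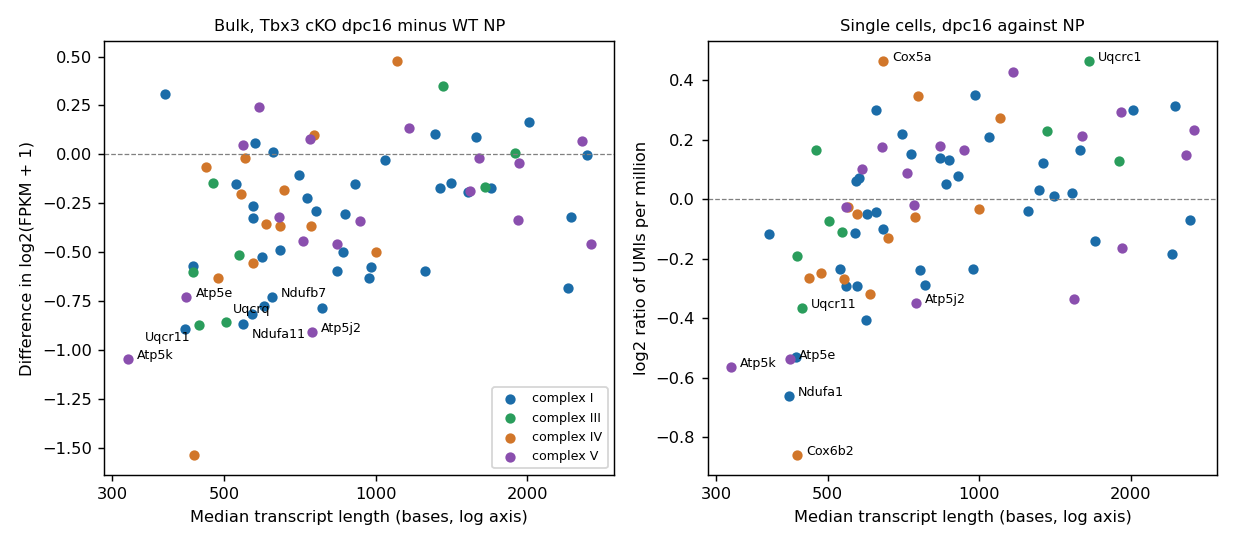
Difference in expression of each nuclear member (points) against its median annotated transcript length in bases (log axis), in bulk and in single-cell libraries, with 0 as the dashed line. Short members lie lower in cKO against NP and in single-cell dpc16 against NP.

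Promoter letters of the members were read from RefSeq (GRCm38.p6), which matched 64 of 80 nuclear members, in the 250 bases before each annotated start and on both strands. The palindrome of NRF1, a factor known for driving nuclear genes of the chain, stood in 4 of 64 members (Atp5g2, Atp5k, Cox6a1 and Ndufa11) and in 0.877% of 27025 genes. The ETS letters ACTTCCGG, as bound by GABP, stood in 3 of 64 (Atp5h, Uqcr11 and Uqcrh) and in 3.23% of genes, and the YY1 letters AAGATGGCG in 1 (Atp5j) and in 0.710%. Among the called members Atp5k and Ndufa11 held the palindrome and Uqcr11 the ETS letters, and these stretches are shown 5′ to 3′ on the gene's strand, with the matched letters in capitals.
Atp5k: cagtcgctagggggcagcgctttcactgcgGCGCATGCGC
Ndufa11: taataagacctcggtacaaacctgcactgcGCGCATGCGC
Uqcr11: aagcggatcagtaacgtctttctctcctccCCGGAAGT
The stretches lie at chr5:108434440-108434479 (minus strand), chr17:56717672-56717711 (plus) and chr10:80406880-80406917 (minus). The matches begin 50, 60 and 66 bases before the RefSeq start. In GENCODE, whose Atp5k reaches further upstream, 9 bases of the Atp5k stretch fall in an Atp5k exon, and 14 of the Ndufa11 stretch fall in an exon of Vmac. Uqcr11 holds the ETS letters on the opposite strand. A match is a description of letters, and binding was not measured.

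The 13 mitochondrially encoded genes fell into separate ranges in the bulk table. Most of the 31-base words of mt-Co2 (100%), mt-Co3 (99.9%), mt-Atp6 (99.5%), mt-Nd4l (98.9%) and mt-Nd3 (98.1%) also occur in annotated transcripts of the nuclear genome. These 5 genes were listed at 0 to 116.5 FPKM. The other 8 share 0% (mt-Nd1) to 63.9% (mt-Co1) of their words and stood at 305.2 to 30316 FPKM. The ranges did not overlap in any library.

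The copies are unprocessed pseudogenes next to each other on the minus strand of chromosome 1. They are Gm28661 for mt-Co2 (chr1:24614885-24615565), Gm10925 for mt-Atp6 (chr1:24613974-24614651), Gm28437 for mt-Co3 (chr1:24613189-24613971), Gm28438 for mt-Nd3 (chr1:24612775-24613119) and Gm10222 for mt-Nd4l (chr1:24612407-24612700). Compared base by base, mt-Co3 (783 bases), mt-Co2 (681), mt-Atp6 (678) and mt-Nd4l (294) had 0 mismatches to their copies. Over 345 bases mt-Nd3 had 1, T3C, counted from 1 at the gene's first base. The first 120 bases of mt-Nd3 and of its copy are shown because a short read from most of the gene has the same letters as one from the copy. The differing base is in capitals.
mt-Nd3: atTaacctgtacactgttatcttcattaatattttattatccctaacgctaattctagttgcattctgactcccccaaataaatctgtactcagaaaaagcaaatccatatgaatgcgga
Gm28438: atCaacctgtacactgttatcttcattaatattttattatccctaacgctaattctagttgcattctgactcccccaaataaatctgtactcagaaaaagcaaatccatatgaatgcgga

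None of the 5 copies was a row of the bulk table or of the single-cell matrices used here, and how reads matching both places were counted is not given in the sources used here. The bulk values of these 5 genes are therefore uncertain. Bulk mt-Co3, a core subunit of complex IV, was listed at 0 to 1.58 FPKM, and mt-Co1, the catalytic subunit of the same complex, at 2211 to 5379. In single cells, levels are given in CPM, UMIs scaled to a total of 1000000 (of all UMIs for mitochondrially encoded genes, and of the other UMIs for nuclear genes). By that scale mt-Co3 gave 6625 to 7527 CPM and mt-Co1 6675 to 7757. For mt-Atp6, a membrane subunit of the ATP synthase, the bulk range was 2.96 to 12.3 FPKM and the single-cell range 7776 to 9547 CPM. UMIs are not scaled by length, so they are not a level per length.

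**Figure D4:**
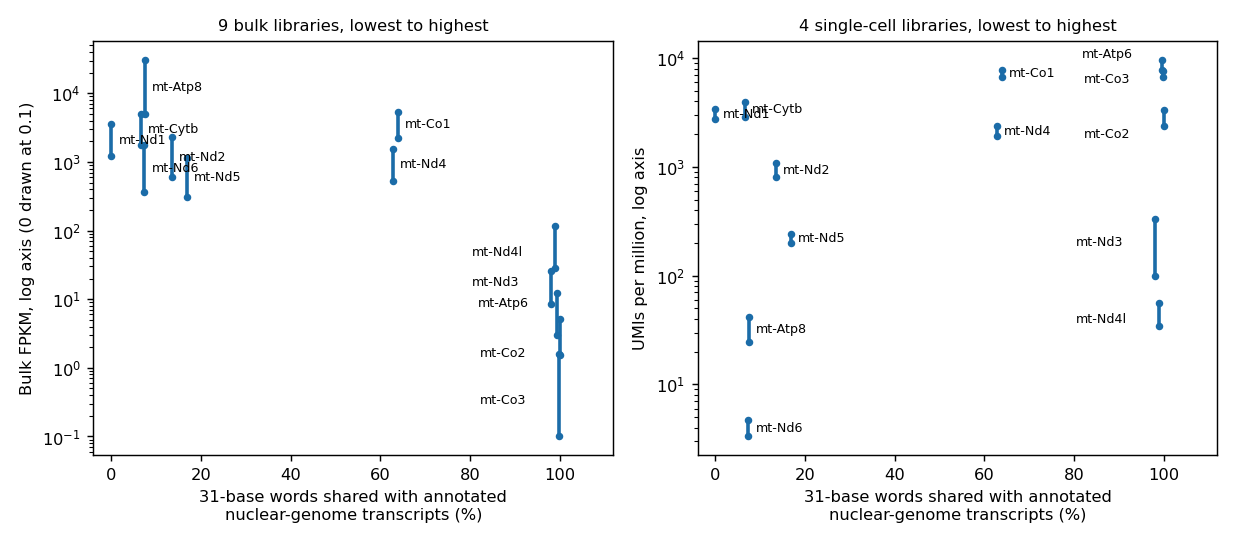
Level of each mitochondrially encoded gene (bars from lowest to highest library, log axis) in FPKM in 9 bulk libraries and in CPM in 4 single-cell libraries, against the percent of its 31-base words shared with annotated nuclear-genome transcripts. The 5 genes above 95% lie at 0 to 116.5 FPKM in bulk, and 3 of them lie above 2377 CPM in single cells.

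Without the 5 genes, the mitochondrially encoded pattern in bulk was more uniform, and no gene passed. In WT dpc16 against NP 8 of 8 lay above 0 (median 0.40, smallest unadjusted p 0.106). In cKO against WT dpc16 8 of 8 lay below 0 (median -0.30, smallest unadjusted p 0.378), and in cKO against NP 7 lay above (median 0.13). These 8 genes come from long shared precursor transcripts and are not separate measurements. Single libraries spread widely: mt-Nd1, a core subunit of complex I, stood at 1656, 2335 and 3031 FPKM in WT dpc16, 2319, 2512 and 1224 in NP and 1554, 1990 and 3537 in cKO. NP library 3 was the lowest and cKO library 3 the highest of the 9, and the groups overlapped.

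mt-Atp8, a very short gene of the ATP synthase that overlaps mt-Atp6 by 43 bases, made up 38.3% to 62.5% of the summed mitochondrially encoded FPKM. It stood at 6688, 11467 and 30316 FPKM in WT dpc16, 14793, 23551 and 4939 in NP and 6220, 7377 and 28628 in cKO. The groups overlapped. In single cells mt-Atp8 gave 24.5 to 42.1 CPM. mt-Nd6, the member on the opposite strand, overlaps mt-Nd5 by 14 bases.

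In the single-cell libraries, mitochondrially encoded members took 3.54% of all UMIs at NP (95% exact interval 3.53% to 3.55%), 3.42% at dpc16 (3.42% to 3.43%), 3.86% at dpp6 (3.86% to 3.87%) and 3.30% at dpp40 (3.30% to 3.31%). Nuclear members took 2.74%, 2.74%, 2.71% and 2.61% of the UMIs that were not mitochondrially encoded. The mitochondrially encoded share was thus highest at dpp6 and the nuclear share lowest at dpp40. Intervals cover counting error only, and with 1 library a state there was no test, since a state cannot be told apart from its library.

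Few members differed from NP by 25% or more, taken as the higher of both levels over the lower. At dpc16, 9 of 74 nuclear members were lower (Atp5e, Atp5j2, Atp5k, Atp5s, Cox6b2, Ndufa1, Ndufa3, Ndufa5 and Uqcr11) and 3 of 13 mitochondrially encoded (mt-Atp8, mt-Nd3 and mt-Nd4l), beside 23.4% of 10407 genes. At that state 5 nuclear members were higher (Atp5c1, Cox4i1, Cox5a, Ndufs8 and Uqcrc1), with mt-Nd6, beside 6.24% of genes. At dpp6, 3 nuclear members (Atp5k, Ndufa1 and Ndufa3) with mt-Atp8 and mt-Nd4l were lower, beside 7.91%, and 0 higher, beside 11.4%. At dpp40 Ndufa4 was lower, beside 8.42%, and mt-Nd3 higher, beside 4.69%.

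mt-Nd3, a core complex I subunit, had the largest ratio of highest to lowest library among members. It gave 258, 98.9, 220 and 334 CPM at NP, dpc16, dpp6 and dpp40, a ratio of 3.37. Atp5k gave 291, 196, 188 and 345 CPM, and Ndufa3, an accessory complex I subunit, 204, 141, 145 and 245. Both were lower at dpc16 and dpp6 than at NP and dpp40. Cox6b2 gave 12.8, 7.03, 12.3 and 13.5 CPM and mt-Atp8 39.4, 29.4, 24.5 and 42.1. At the other end, Ndufv1, the NADH-binding subunit of complex I, gave 80.5, 81.8, 81.4 and 80.0 CPM, a ratio of 1.02. Atp5l, Ndufs1, Ndufa13 and Cox7b had ratios of 1.05, 1.05, 1.05 and 1.07.

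Of the 7 genes called lower in bulk cKO against NP, Atp5e, Atp5j2, Atp5k and Uqcr11 were among the members lower at single-cell dpc16. There, 9 of all 74 nuclear members were lower, beside 23.4% of genes. The comparisons are not alike, since the bulk one includes Tbx3 loss in sorted basal cells and the single-cell one is of whole epidermis without the cKO genotype. In the bulk comparison of WT dpc16 with NP, 0 members were called. Atp5e gave 562, 387, 462 and 558 CPM at NP, dpc16, dpp6 and dpp40, Atp5j2 588, 461, 501 and 569, and Uqcr11 527, 409, 433 and 500. In each case NP and dpp40 stood above dpc16 and dpp6. The nuclear members Uqcrc1 (256, 354, 278 and 267), Cox5a (313, 432, 351 and 300) and Cox4i1 (1472, 1875, 1593 and 1420) stood highest at dpc16. Short and long members differed here too: members under 700 bases had a median log2 difference between dpc16 and NP of -0.12 with 26 of 33 below 0, and members from 1500 to under 3000 bases 0.15 with 5 of 15 below 0. Over all genes of those lengths the medians were -0.18 and -0.08. Members from 700 to under 1500 bases stood at 0.11, beside -0.02 over all genes of that length. Spearman's rho between length and difference was 0.536 over the 74 nuclear members and -0.088 over all genes, as a description. Over all genes too, the class under 700 bases had the lowest median. The rho over all genes includes 4301 genes of 3000 bases or more (median -0.13), a class with 0 members, so the 2 values are not alike.

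Cells were clustered on genes that included neither the members nor other mitochondrially encoded genes, and 9 classes were named from markers. Within all 9 classes, NP and dpp40 both stood above dpc16 and dpp6 for 12 of 87 members, beside 0.723% of 9537 genes. These were Atp5e, Atp5j2, Atp5k, Ndufa2, Ndufa3, Ndufa5, Ndufa7, Ndufb2, Ndufc1, Uqcr11, mt-Nd3 and mt-Nd4l, and the order held in 8 of 9 for Cox7c, Ndufa1 and mt-Atp8. For mt-Nd3, dpc16 was lowest and dpp40 highest in 9 of 9 classes, with dpc16 to NP ratios of 0.277 to 0.467. For 11 of 87 members, all nuclear, dpc16 stood above NP in 9 of 9 classes, beside 4.33% of genes. They were Atp5c1 (the central stalk's gamma subunit), Atp5f1, Atp5g1, Cox4i1, Cox5a, Cox7a2l, Ndufa12, Ndufb5, Ndufb10, Uqcrfs1 and Uqcrh. All classes of a state come from 1 library, so they are not replicates. Both orders were already seen above in the library totals of some of these members, and the classes are parts of those libraries. The counts are therefore not a separate result. The 9537 genes were not matched to the members by level, so their shares are not a like background. The mitochondrially encoded share was highest at dpp6 in 8 of 9 classes, with granular cells as the exception, and the nuclear share was lowest at dpp40 in 3 of 9.

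Sebaceous gland-like cells, which make the lipid of sebum, had the highest share of both kinds of member in each of the 4 libraries. Mitochondrially encoded members took 5.84% of their UMIs at NP, 5.66% at dpc16, 6.79% at dpp6 and 5.39% at dpp40, a mean of 5.92% ± 0.609 (SD, n = 4 libraries, each of another state). Nuclear members took 4.39%, 3.90%, 4.03% and 4.14% in the same order (mean 4.12% ± 0.206). Basal keratinocyte-like cells stood at 3.56% ± 0.265 and 2.78% ± 0.0209. No library of the sebaceous class overlapped with the basal class. The sebaceous class joined 2 clusters, of 827 cells at 5.17% and 3.49%, and of 300 cells at 7.81% and 5.37%, so its smaller cluster had the higher shares.

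Granular keratinocyte-like cells, the last living layer before the cornified envelope, stood lowest of the named classes in all 4 libraries. Their shares were 2.10% ± 0.261 mitochondrially encoded and 2.14% ± 0.127 nuclear. An unnamed cluster of 18 cells stood lower, at 0.641% and 0.413%. The median depth of granular cells, 11700 to 15800 UMIs, was the highest of the classes, beside 3860 to 4732 in basal cells. The part of depth in the shares was not tested. Cycling-like cells differed in the 2 kinds of member. Their nuclear share of 3.24% ± 0.0700 was second to the sebaceous class among named classes in 4 of 4 libraries. Their mitochondrially encoded share of 3.33% ± 0.273 was below that of the basal class in 4 of 4 libraries. It was 3.51% at NP, 3.25% at dpc16, 3.58% at dpp6 and 2.99% at dpp40, beside 3.67%, 3.33%, 3.89% and 3.36% in basal cells. The remaining named classes (infundibulum and upper follicle, bulge and outer root sheath, spinous, Langerhans and T cell-like) lay between means of 3.34% and 3.98% mitochondrially encoded and 2.62% and 2.70% nuclear. Across 24 clusters Pearson's r between both shares was 0.85 and Spearman's rho 0.50, as a description, and r was 0.36 without the 2 sebaceous clusters.

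**Figure D5:**
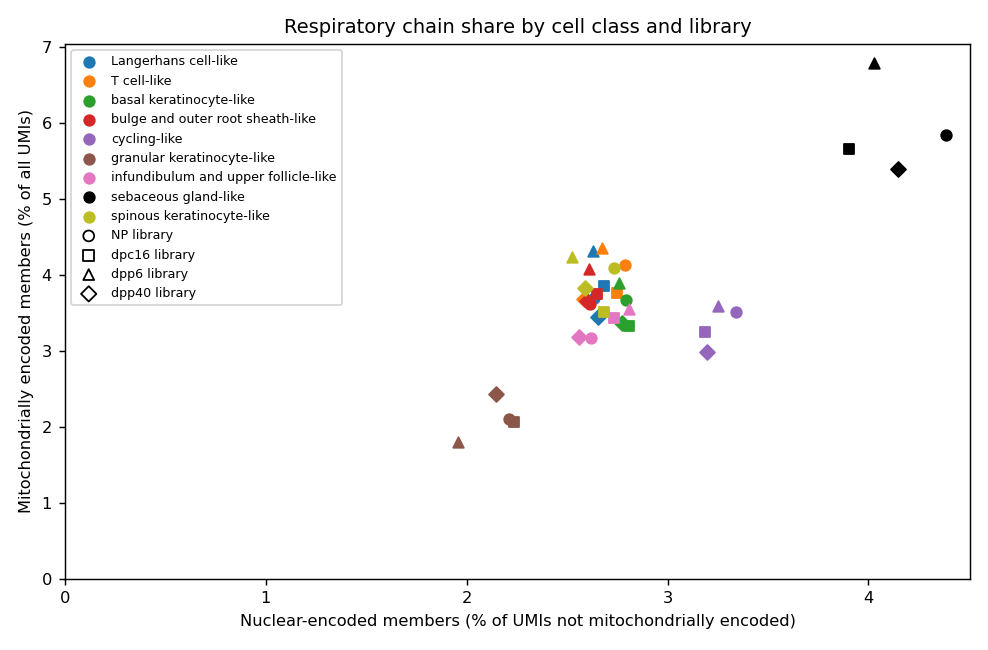
Mitochondrially encoded share (% of all UMIs) against nuclear share (% of UMIs not mitochondrially encoded) of each cell class in each single-cell library (points). Sebaceous gland-like cells lie at the upper right (5.39% to 6.79% and 3.90% to 4.39%), granular cells at the lower left, and cycling cells to the right of the others.

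Single members were set beside basal keratinocyte-like cells within each library, and a direction was counted where all 4 libraries showed it. In the basal class, 2 of the 3 clusters came mostly from dpc16 and the other mostly from the remaining states. In sebaceous cells 69 of 74 nuclear members were higher in 4 of 4 libraries, beside 26.9% of all genes, and Cox7a2l and Uqcrc1 were among the exceptions. Of the mitochondrially encoded members, 9 of 13 were higher, and 1 nuclear and 1 mitochondrially encoded member were lower, beside 29.6% of genes. The median ratio was 1.41 for nuclear and 1.33 for mitochondrially encoded members, beside 0.98 over all genes. Uqcrq gave 820, 655, 797 and 1058 CPM in sebaceous cells and 305, 295, 311 and 309 in basal cells (NP, dpc16, dpp6, dpp40). Cox8a, the broadly expressed form of complex IV subunit 8, gave 2122, 1721, 1946 and 1766 against 734, 787, 747 and 754. Each was higher in every library, with mean ratios of 2.73 and 2.50.

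In cycling cells 53 of 74 nuclear members were higher in 4 of 4 libraries, beside 34.2% of all genes, and 0 of 13 mitochondrially encoded members were. Of the latter, 7 were lower, beside 20.5% of genes, and 6 of 13 had no one direction. A further 9 nuclear members were lower, and the median ratios were 1.19 and 0.88, beside 1.06 over all genes. In granular cells 56 of 74 nuclear and 13 of 13 mitochondrially encoded members were lower, beside 61.1% of all genes, and 5 nuclear members were higher, beside 21.0%. The median ratios in granular cells were 0.68 and 0.55, beside 0.61 over all genes.

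In bulge and outer root sheath-like cells 12 of 74 nuclear members were higher, beside 35.3% of genes, and 39 lower, beside 17.9%, with a median ratio of 0.95. In infundibulum and upper follicle-like cells 9 were higher, beside 21.3%, and 33 lower, beside 33.2%, and in spinous cells 13 were higher, beside 26.7%, and 40 lower, beside 36.1%. In Langerhans cell-like cells 13 were higher, beside 23.9%, and 29 lower, beside 23.0%, and in T cell-like cells 17 were higher, beside 21.8%, and 18 lower, beside 13.9%. More nuclear members were lower than higher in bulge, infundibulum, spinous and Langerhans cells, and in T cells the counts were close to each other. All genes leaned the same way in infundibulum and spinous cells. There the nuclear median ratios were 0.947 and 0.945, close to 0.946 and 0.949 over all genes. Of the 13 mitochondrially encoded members, 9 were lower and 1 higher in infundibulum cells, with a median ratio of 0.83 beside 0.95 over all genes. In T cells 5 were higher and 0 lower, in spinous cells 4 and 1, in bulge cells 3 and 1, and in Langerhans cells 2 and 1.

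Individual subunits departed from their class. Ndufa4 gave 2471, 2448, 2507 and 1678 CPM in granular cells and 395, 389, 303 and 273 in basal cells (NP, dpc16, dpp6, dpp40). Granular cells were above basal cells in every library, with a mean ratio of 6.70, in a class where most members were lower. Uqcrc1, a core subunit of complex III, was below the basal level in 8 of 8 other classes in 4 of 4 libraries, with mean ratios of 0.29 to 0.82. Cox4i1 and Atp5c1 were lower than in basal cells in 7 of 8. Ndufa11 gave 589, 452, 682 and 554 CPM in bulge and outer root sheath-like cells and 262, 253, 295 and 297 in basal cells, a mean ratio of 2.06.

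Cox6b2 was rare in basal cells and higher in most other classes. It gave 3.96, 3.54, 4.35 and 5.29 CPM in basal cells and 35.1, 26.9, 39.7 and 43.4 in cycling cells, a mean ratio of 8.47. Langerhans cell-like cells, the antigen-presenting cells of the epidermis, gave 31.1, 25.7, 21.1 and 27.4 (mean ratio 6.15). Both classes were above basal cells in 4 of 4 libraries. These levels rest on 2509 Cox6b2 UMIs in all, of which cycling cells held 555 and basal cells 116. Spinous cells, at 0.58 of the basal level, gave 149, and the part of RNA free in the droplets was not tested. The other tissue-restricted forms were near 0 in the epidermis: Cox7a1 gave 104 UMIs in all 4 libraries together, Cox4i2 12, Cox8b 6, Cox6a2 3, Cox8c 1 and Cox7b2 0.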

How the data were processed

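Bulk FPKM were deposited by the authors in 1 table for 9 libraries of sorted basal cells, made from a stranded mRNA kit on a NextSeq 500, per the labels' protocols. Tools named in the submitters' processing notes, with no roles, are TopHat2, cutadapt 1.14, Cuffdiff, Cufflinks 2.2.1 and Cell Ranger 2.2.0, with the build mm10. The FPKM depth is unknown, and annotation, strand setting and scaling across libraries were not given in the sources used here. Columns headed WT were taken as WT dpc16 because the other headings name NP and cKO, and libraries are numbered by column. Single-cell files hold raw UMI counts per gene and barcode as deposited by the authors (10x), in 4 libraries of 40425500 (NP), 74798568 (dpc16), 56833799 (dpp6) and 63492242 (dpp40) UMIs in cells with at least 200 genes.

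Values were taken as log2(FPKM + 1), which understates changes of low genes. The 11497 genes averaging 1 FPKM or more were fitted with limma 3.58.1 (R 4.3.3): 3 group means over 9 libraries, empirical Bayes with a trend, two-sided tests, Benjamini-Hochberg adjustment over all tested genes and a threshold of 0.05. The fit was tested on simulated data. Cells were clustered with scanpy 1.11.5 and leidenalg 0.10.2 (2000 variable genes, 30 components, 15 neighbours, resolution 1), with no mitochondrial filter, which would select on members. A class needed 3 of its markers among the 100 leading genes of a cluster, 3 markers detected in 10% of cells and 50 cells, a threshold set after the clusters were seen, and 6 clusters (6195 cells) stayed unnamed. No doublet caller was run, and no doublets were removed. Folds between libraries were taken for 10407 genes with at least 100 UMIs, and nuclear members were scaled to UMIs that are not mitochondrially encoded.

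Positions, transcript lengths and 31-base words came from GENCODE release 21 of the mouse series (M21, GRCm38). Of nuclear members, 20 of 80 shared over 20% of their words with other genes (up to 85.4% for Atp5l), so their values are less certain. The Ndufa11 exons overlap Vmac on the opposite strand by 70 bases. Members and lists were chosen with earlier results of these data known. Named are all called members, the 3 smallest p of each group of members in each comparison, listed alternative subunits, up to 4 called genes of each other list, and in single cells the 5 largest and 5 smallest ratios between libraries. Other members named in single cells, and Ndufa6, Uqcrfs1 and Cox7a2l as members above 0, were chosen after their values were seen. Values of 1 member are not reported here on their own. Alternatives were another pseudocount, filters, scalings, 2-group fits, no trend, each library left out, a limit of 10% mitochondrial UMIs, 500 genes per barcode, means over cells and resolution 0.5.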

Additional observations from a re-analysis of the deposited data

How the results depend on the processing

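No paired analysis was possible because the columns of the bulk table carry numbers that could not be matched to the replicate numbers in the sample titles. In WT dpc16 against NP, 0 members passed under every alternative run. In cKO against WT dpc16 the count of lower members was 1, Uqcr11, when libraries were scaled to genes that are not mitochondrially encoded or rescaled to equal sums, and 0 to 1 when libraries were left out in turn (1 without NP library 3). In cKO against NP it was 1 with no low-FPKM filter, with only the 2 groups compared, or without the trend, and 7 to 8 under the other settings. With libraries left out it was 0 to 8: 0 without cKO library 1, 1 without NP library 2 or 3, 2 without WT dpc16 library 2 or cKO library 2, and 4 without WT dpc16 library 1 or 3. The share of all genes called lower, 2.91% in the main fit, was also smaller in these settings. It was 0.956% with no low-FPKM filter, 0.687% with only the 2 groups and 1.80% without the trend. Without cKO library 1 or 2 it was 0.488% or 1.56%, and without NP library 2 or 3 0.974% or 1.07%. Without WT dpc16 library 1, 2 or 3 it was 1.77%, 1.49% or 2.35%. The nuclear median in cKO against WT dpc16 ranged from -0.32 to -0.16 and in cKO against NP from -0.38 to -0.19 as libraries were left out. The mitochondrially encoded median ranged from -0.003 to 0.55 in WT dpc16 against NP, from -0.70 to -0.05 in cKO against WT dpc16 and from -0.32 to 0.34 in cKO against NP, where it was -0.32 without cKO library 3 and -0.23 without NP library 3. Rescaling to equal sums changed the calls over all genes in cKO against WT dpc16 from 141 higher and 106 lower to 130 and 150, and scaling without mitochondrially encoded genes to 131 and 144. Of 764 values for named members under alternatives, 699 stayed on the same side of the threshold, 57 lost it and 8 gained it. The losses all fell on the called members. Among values that passed in the main fit or the alternative, 0 changed direction. Changes of direction where neither fit passed were not counted apart and are within the 699. The causes of these shifts were not tested. With at most 10% mitochondrial UMIs per cell, the mitochondrially encoded share was 3.38% (NP), 3.36% (dpc16), 3.62% (dpp6) and 3.16% (dpp40), and as a mean over cells 3.62%, 3.55%, 4.10% and 3.41%. The nuclear share was 2.73% (NP), 2.76% (dpc16) and 2.63% (dpp40) as a mean over cells, and 2.70% at dpp6 with the 10% limit. At resolution 0.5 basal cells stood at 3.28% mitochondrially encoded and 2.74% nuclear, and sebaceous cells at 4.39% nuclear. Levels of mt-Nd6, mt-Atp8 and mt-Nd4l in small classes rest on few UMIs.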
